A study of Mus musculus with 12 samples.

Results

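The array measured 78 small nucleolar and Cajal body RNA genes of 22180 genes in all: 47 box C/D RNAs, 26 box H/ACA RNAs and 5 small Cajal body RNAs. They are the genes whose symbol in the array annotation starts with Snord, Snora or Scarna, taken from rows with a single symbol. A gene with more than 1 row was represented by the row chosen by its mean over the 12 arrays, the highest being taken. That mean is the only measured value the choice used, and it decided between rows for Snora33 and Scarna17, while the rows of Snora19 held equal values. All 78 were found in the RefSeq gene table, which lists 142 genes of these names.

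Small nucleolar RNAs are short, stable RNAs that pair with other RNAs and direct proteins to modify them. Box C/D RNAs guide methylation of the ribose and box H/ACA RNAs guide the conversion of uridine to pseudouridine, mostly in ribosomal RNA, while small Cajal body RNAs do the same for the RNAs of the spliceosome. In mammals most of them are not transcribed from a gene of their own but are cut out of the introns of host genes, many of which encode ribosomal proteins or translation factors.

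The 12 samples were Treg (Foxp3+) and Teff (Foxp3-) cells from the spleens of 8-week-old C57BL/6 mice that carry the Foxp3.eGFP reporter, which marks the Treg cells. By the labels, CD4+ cells holding both types were treated together. For the anti-CD3-CD28 Treg and Teff groups they received antibodies to CD3 and CD28 (2 µg/ml each) for 3 days, and for the OX40L-JAG1 Treg and Teff groups soluble forms of the ligands OX40L (5 µg/ml) and JAG1 (1 µg/ml), likewise for 3 days. The control Treg and Teff groups were labelled untreated, and the labels do not say whether they were cultured. Each group had 2 arrays, replicate B and replicate 1, and values below are given in that order. The labels do not say that replicates came from separate mice or cultures. A p-value therefore reflects the spread between the 2 arrays of a group, pooled over the 6 groups, and that spread may be technical. In the main fit all 12 arrays enter the standard error (SE) of every comparison, those of OX40L-JAG1 Teff included.

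Foxp3 followed the labels, at 10.36 to 11.22 in the 6 Treg arrays and 5.58 to 6.81 in the 6 Teff arrays (log2 values), and the 5 T cell markers measured lay above the array median in every array. The OX40L-JAG1 Teff arrays stood apart. Their replicates correlated at 0.881 across genes, against 0.984 to 0.994 in the other groups, so counts are also given without them. Their levels also spanned a narrower range, with an SD over genes of 1.49 and 1.71, against 1.95 to 2.19 in the other arrays. The myeloid markers of the OX40L-JAG1 Teff arrays were also high: the summed level of 8 such genes was 57.2 and 63.8 there and 53.2 to 54.5 in OX40L-JAG1 Treg cells, against 36.2 to 40.5 in the other 4 groups. S100a8, which encodes a granulocyte protein, was at 10.77 and 12.03 in OX40L-JAG1 Teff cells and 9.66 and 9.84 in OX40L-JAG1 Treg cells, against 5.18 and 5.14 in control Teff cells and 3.38 and 3.59 in control Treg cells. The summed level of 4 cycling markers was 39.3 and 39.2 in anti-CD3-CD28 Treg cells, with 37.3 and 36.6 in anti-CD3-CD28 Teff cells, against 23.2 to 32.0 in the other groups. The summed level of the 5 T cell markers was 46.4 to 51.9 in the treated Teff groups, against 56.7 and 56.3 in control Teff cells and 53.8 to 55.9 in the Treg groups. Platelet markers (Pf4 and Ppbp) summed to 11.96 to 17.4 in the treated groups, against 7.42 to 8.30 in the controls. B cell markers summed to 24.6 and 24.8 in anti-CD3-CD28 Teff cells, 27.5 and 30.1 in OX40L-JAG1 Teff cells and 24.7 and 25.6 in control Treg cells, against 29.7 and 29.9 in control Teff cells. Of 5 measured, 4 were lower in anti-CD3-CD28 Teff than in control Teff cells (Cd79a -1.92, Ms4a1 -1.53), 1 in OX40L-JAG1 Teff than in control Teff cells (Cd79a -0.89) and 3 in control Treg than in control Teff cells (Cd79a -2.04, Ms4a1 -1.89). In the same order, 9.75%, 26.9% and 2.51% of all genes were lower, so the count in OX40L-JAG1 Teff cells does not stand out. Among 5 markers of CD8 T and NK cells, Klrd1 was lower in control Treg than in control Teff cells (-3.10). Cd8a was higher in anti-CD3-CD28 Teff than in control Teff cells (1.13), where Cd8b1 (-0.75), Klrb1c (-0.88), Klrd1 (-0.40) and Ncr1 (-0.31) did not pass. Cd8b1 was lower in OX40L-JAG1 Teff than in control Teff cells (-1.29), where Cd8a (0.32), Klrb1c (0.60), Klrd1 (0.32) and Ncr1 (-0.15) did not pass. The CD8 chains Cd8a and Cd8b1 thus went opposite ways in both treated Teff groups. The 5 CD8 T and NK markers summed to 24.5 and 22.9 in control Treg cells and 26.7 and 26.9 in anti-CD3-CD28 Teff cells, against 27.9 and 28.1 in control Teff cells. The part of these cells and states in the results was not tested. In bulk samples, fewer cells of a type and less RNA per cell cannot be told apart.

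The 78 RNAs gave signal over a wide range. The mean over the 12 arrays ran between 4.60 and 13.46 for box C/D RNAs (median 11.49), between 4.96 and 13.66 for box H/ACA RNAs (median 11.20) and between 8.87 and 12.30 for the Cajal body RNAs (median 11.30), on the log2 scale of the array. Signals of different probes are not comparable between genes, so only differences between samples are read below. The lowest array median, 4.87, serves as a bound, and Snord123 alone had a mean under it. Where a group mean lies below that bound, signal above background was not shown, and the size of a difference from it may be understated. This touches Snord85 and Snora35 in both treated Treg groups and control Teff cells, Snord91a in OX40L-JAG1 Treg cells, Snora19 in both treated Treg groups and Snord123 in all groups but OX40L-JAG1 Teff cells.

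The median level of each class moved over the groups by more than its replicates differed. The box C/D median was 9.64 and 9.56 after anti-CD3-CD28 in Treg cells, and 11.14 and 11.26 after OX40L-JAG1, against 12.25 and 12.17 in control Treg cells. In Teff cells the order was turned round, with 12.49 and 12.53 after anti-CD3-CD28 and 12.56 and 12.71 after OX40L-JAG1, against 11.00 and 10.97 in control Teff cells. Of the 78 RNAs, 67 had their lowest group mean in anti-CD3-CD28 Treg cells. The highest group mean was in OX40L-JAG1 Teff cells for 39, in anti-CD3-CD28 Teff cells for 33 and in control Treg cells for 6. These counts have no share over all genes beside them. The median over all genes was also highest in the OX40L-JAG1 Teff arrays (5.17 and 5.12).

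**Figure D1:**
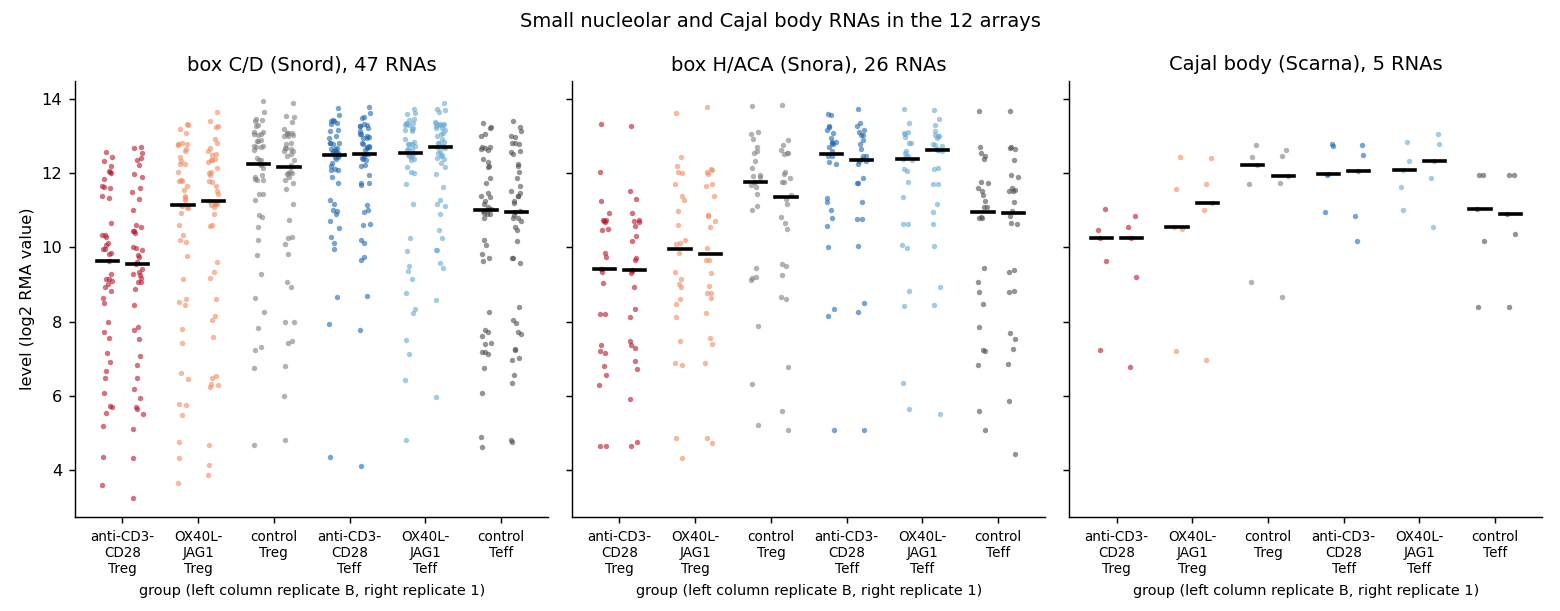
Level of each of the 47 box C/D, 26 box H/ACA and 5 Cajal body RNAs (points, log2 RMA value) in the 12 arrays, with the class median of each array as a black bar; the left column of a group is replicate B and the right one replicate 1. The medians lie lowest in anti-CD3-CD28 Treg cells and, in Teff cells, higher in both treated groups than in control.

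Most of these RNAs were lower in Treg cells after stimulation through the T cell receptor. In anti-CD3-CD28 Treg cells against control Treg cells 70 of 78 fell and none rose by limma (adjusted p under 0.05; at an unadjusted p under 0.05, 75 were lower and 0 higher). Of all genes tested, 1.97% were lower and 8.08% higher. The 70 comprised 44 of 47 box C/D RNAs, 21 of 26 box H/ACA RNAs and 5 of 5 Cajal body RNAs, with median changes of -2.25, -1.99 and -1.87 on the log2 scale against -0.05 over all genes. All 78 had lower values in both anti-CD3-CD28 Treg arrays than in both control Treg arrays, as did 32.0% of all genes. Without the OX40L-JAG1 Teff arrays 75 fell, where 6.75% of all genes were lower and 14.8% higher.

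Among box C/D RNAs, Snord90, which lies in Rc3h2, had 6.90 and 7.06 in anti-CD3-CD28 Treg cells, against 10.81 and 10.27 in control Treg cells. Snord52, from the noncoding host 1110038B12Rik, had 6.46 and 5.68 there, against 9.78 and 9.06 in control Treg cells. The groups did not overlap for either RNA. Snord90 was 11.8-fold lower (log2 change -3.56 ± 0.23, SE, adjusted p = 5.74e-06) and Snord52 10.2-fold lower (-3.35 ± 0.39, adjusted p = 0.000189). Snord19 (-3.44 ± 0.35), from the nucleostemin gene Gnl3, and Snord92 (-3.41 ± 0.29), from Wdr43, fell by similar amounts.

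The largest fall of a box H/ACA RNA was that of Snora30, which lies in the chromatin remodeller gene Srcap. It had 7.20 and 7.47 in anti-CD3-CD28 Treg cells, against 11.68 and 10.82 in control Treg cells, with both treated arrays below both controls (15.1-fold lower, -3.92 ± 0.30, adjusted p = 1.24e-05). Snora74a fell by 3.05 and Snora69, which lies in the ribosomal protein gene Rpl39, by 2.89 on the log2 scale. Among Cajal body RNAs, Scarna6 had 9.62 and 9.20 in anti-CD3-CD28 Treg cells, against 12.24 and 11.92 in control Treg cells. It was 6.35-fold lower (-2.67 ± 0.27, adjusted p = 8.57e-05), and Scarna17 was 4.55-fold lower (-2.19 ± 0.17, adjusted p = 1.52e-05).

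A part of these RNAs was also lower in Treg cells after the ligands OX40L and JAG1, which bind the OX40 and Notch receptors. In OX40L-JAG1 Treg cells against control Treg cells 31 of 78 fell and none rose by limma (unadjusted, 64 lower and 0 higher), where 0.559% of all genes were lower and 0.996% higher. They were 16 of 47 box C/D RNAs, 13 of 26 box H/ACA RNAs and 2 of 5 Cajal body RNAs, with class medians of -0.92, -1.10 and -0.93 against -0.01 over all genes. Of the 78, 76 had lower values in both OX40L-JAG1 Treg arrays than in both control Treg arrays, as did 22.5% of all genes. Without the OX40L-JAG1 Teff arrays 55 fell, where 2.01% of all genes were lower and 3.4% higher. The count was also 55 without either OX40L-JAG1 Teff array alone. Leaving out control Treg replicate B gave 10, and control Treg replicate 1 gave 16. Leaving out replicate B of OX40L-JAG1 Treg gave 10, and its replicate 1 gave 14. With either control Teff array left out it was 18, and with either anti-CD3-CD28 Treg array left out 20.

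Snord52 again led the fall, with 6.62 and 6.30 in OX40L-JAG1 Treg cells, against 9.78 and 9.06 in control Treg cells (7.78-fold lower, -2.96 ± 0.39, adjusted p = 0.00281). Snord92 had 7.43 and 7.58 there, against 10.54 and 10.27 in control Treg cells (7.45-fold lower, adjusted p = 0.00072). Neither RNA overlapped between the groups. Snord85 (-2.63 ± 0.52) and Snord43 (-2.30 ± 0.36) fell too. Box H/ACA RNAs were led by Snora61 at 9.84 and 9.65 in OX40L-JAG1 Treg cells, against 12.33 and 12.03 in control Treg cells (5.4-fold lower, adjusted p = 0.00122). Snora44, from the same host Snhg12, fell by 2.21 and Snora74a by 2.20. Of the Cajal body RNAs Scarna2 (-0.93 ± 0.20, adjusted p = 0.0447) and Scarna17 (-0.80 ± 0.17, adjusted p = 0.0465) passed narrowly.

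In anti-CD3-CD28 Treg cells against OX40L-JAG1 Treg cells 42 of 78 were lower and none higher by limma (unadjusted, 54 lower and 2 higher), where 1.18% of all genes were lower and 4.73% higher. The share was 30 of 47 for box C/D RNAs, 9 of 26 for box H/ACA RNAs and 3 of 5 for Cajal body RNAs, with medians of -1.10, -0.71 and -1.38. Without the OX40L-JAG1 Teff arrays 54 were lower and 2 higher, against 4.01% and 9.89% of all genes. Snord11, which lies in Nop58, was at 9.14 and 9.27 in anti-CD3-CD28 Treg cells, against 11.35 and 11.67 in OX40L-JAG1 Treg cells, with no overlap (4.94-fold lower, adjusted p = 0.00011). Snord111 (-2.23), Snord8 (-2.12), Snord72 (-2.01), Snora30 (-2.16), Snora69 (-1.81), Snora34 (-1.79), Scarna10 (-1.50) and Scarna6 (-1.44) were also lower. Snora61 ran the other way, with 10.74 and 10.71 in anti-CD3-CD28 Treg cells, against 9.84 and 9.65 in OX40L-JAG1 Treg cells, and did not pass (adjusted p = 0.0581).

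In Teff cells most of these RNAs were higher after the same antibodies. In anti-CD3-CD28 Teff cells against control Teff cells 57 of 78 rose and none fell by limma (unadjusted, 66 higher and 0 lower), where 5.44% of all genes were higher and 9.75% lower. They were 33 of 47 box C/D RNAs, 21 of 26 box H/ACA RNAs and 3 of 5 Cajal body RNAs, with medians of 1.48, 1.51 and 0.83 against 0.07 over all genes. When the OX40L-JAG1 Teff arrays were left out, 64 were higher and 1 lower, against 12.5% and 16.5% of all genes. Snord91a, measured at 10.71 and 10.20 in anti-CD3-CD28 Teff cells, against 6.06 and 6.33 in control Teff cells, had the largest rise (19-fold, 4.25 ± 0.56, adjusted p = 0.000506). Snord52 had 11.02 and 10.59 in anti-CD3-CD28 Teff cells, against 6.75 and 6.55 in control Teff cells (17.9-fold higher, adjusted p = 4.94e-05). Both treated arrays lay above both controls for each RNA.

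Of the box H/ACA RNAs Snora2b, from Kansl2, had 11.01 and 11.23 in anti-CD3-CD28 Teff cells, against 7.22 and 7.27 in control Teff cells (14.6-fold higher, adjusted p = 2.91e-05). Snora20, from the chaperonin gene Tcp1, had 10.59 and 10.77, against 6.81 and 6.86 in control Teff cells (14.4-fold higher, adjusted p = 4.51e-06). The treated and control arrays of both RNAs were far apart relative to the replicates. Snord53 rose by 3.32 ± 0.31 and Snora74a by 2.83 ± 0.26 on the log2 scale. Scarna8 rose 6.4-fold (adjusted p = 0.00207) with uneven treated replicates, at 11.97 and 10.17 in anti-CD3-CD28 Teff cells, against 8.40 and 8.38 in control Teff cells. Scarna6 rose 5.09-fold (adjusted p = 0.000229).

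In OX40L-JAG1 Teff cells against control Teff cells 70 of 78 rose and none fell by limma (unadjusted, 72 higher and 0 lower), where 20.0% of all genes were higher and 26.9% lower. They were 42 of 47, 24 of 26 and 4 of 5 RNAs of the box C/D, box H/ACA and Cajal body classes, with medians of 1.62, 1.43 and 0.99 against 0.18 over all genes. This comparison rests on the arrays that stood apart. With array weights 46 rose, and with only the 4 arrays compared 45 rose. Removal of the level trend by loess moved the box C/D, box H/ACA and Cajal body medians to 2.61, 2.43 and 1.90. Snord52 had 9.36 and 10.48 in OX40L-JAG1 Teff cells, against 6.75 and 6.55 in control Teff cells (9.65-fold higher, adjusted p = 0.000105). Snora20 had 10.05 and 10.63 in OX40L-JAG1 Teff cells, against 6.81 and 6.86 in control Teff cells (11.3-fold higher, adjusted p = 1.33e-05). No array overlapped, although the treated replicates differed by more than the controls did. Snord90 (3.08 ± 0.23), Snord92 (2.90 ± 0.29), Snord19 (2.89 ± 0.35), Snora2b (3.32 ± 0.33), Snora74a (2.55 ± 0.26), Scarna8 (2.39 ± 0.45) and Scarna6 (2.29 ± 0.27) also rose.

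The treated Teff groups did not separate clearly from each other. In anti-CD3-CD28 Teff cells against OX40L-JAG1 Teff cells 3 of 78 were higher and 2 lower, where 18.9% of all genes were higher and 9.15% lower. Those higher were Snord91a (1.73 ± 0.56, adjusted p = 0.0403), Snord118 (1.39 ± 0.45, adjusted p = 0.0389) and Snord53 (1.33 ± 0.31, adjusted p = 0.00905). Those lower were Snord123 (-1.17 ± 0.31, adjusted p = 0.0165) and Scarna2 (-0.85 ± 0.20, adjusted p = 0.00977). The split of calls moved with the scaling and the array set. Quantile normalization gave 1 higher and 4 lower, and removal of the level trend by loess gave 0 higher and 33 lower. With array weights and with only the 4 arrays compared no RNA passed in limma (unadjusted, 5 and 4). Without OX40L-JAG1 Teff replicate 1 the split was 15 higher and 6 lower, and without OX40L-JAG1 Teff replicate B 1 higher and 6 lower. It was 1 higher and 1 lower without anti-CD3-CD28 Teff replicate B, 2 higher and 0 lower without anti-CD3-CD28 Teff replicate 1, and 1 higher and 2 lower without any single array of the control Teff, OX40L-JAG1 Treg or anti-CD3-CD28 Treg groups.

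**Figure D2:**
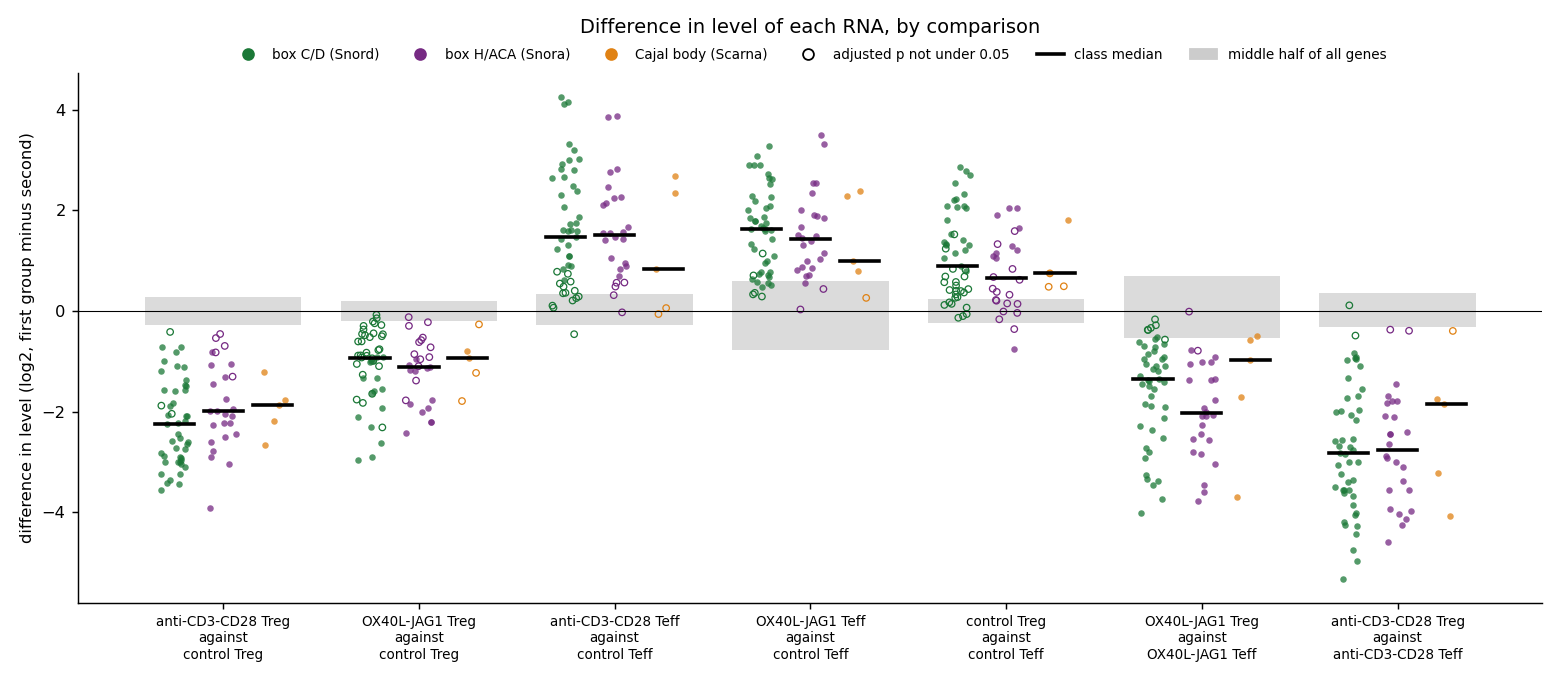
Difference in level (log2, first group minus second) of each RNA in 7 comparisons, coloured by class; filled points passed an adjusted p of 0.05, open points did not, black bars are class medians and grey bands run between the quartiles of all 22180 genes. The class medians are negative in treated against control Treg cells, positive in treated against control Teff cells and negative in treated Treg against treated Teff cells.

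The untreated groups also differed. In control Treg cells against control Teff cells 34 of 78 were higher and 1 was lower, where 1.34% of all genes were higher and 2.51% lower. The higher ones were 23 box C/D, 9 box H/ACA and 2 Cajal body RNAs, with class medians of 0.90, 0.65 and 0.75 against 0.02 over all genes. Without the OX40L-JAG1 Teff arrays 49 were higher and 1 lower, against 5.59% and 8.93% of all genes. The count of 35 became 19 without control Teff replicate B and 16 without control Teff replicate 1 or control Treg replicate B. Snord118 was 7.23-fold higher (2.85 ± 0.45, adjusted p = 0.00439), Snord52 6.83-fold (2.77 ± 0.39, adjusted p = 0.00203) and Snord19 6.53-fold (2.71 ± 0.35, adjusted p = 0.00135). Snord92 (2.54), Snora20 (2.05), Snora30 (2.04), Snora74a (1.90), Scarna6 (1.81) and Scarna10 (0.75) were higher too. Snora16a was the exception, at 11.77 and 11.98 in control Treg cells, against 12.54 and 12.71 in control Teff cells (-0.75 ± 0.18, adjusted p = 0.0473).

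In the treated groups most of these RNAs were lower in Treg than in Teff cells. In anti-CD3-CD28 Treg cells against anti-CD3-CD28 Teff cells 73 of 78 were lower and none higher by limma (unadjusted, 74 lower and 0 higher), where 2.89% of all genes were lower and 9.03% higher. Without the OX40L-JAG1 Teff arrays 74 were lower, against 10.4% of all genes lower and 18.2% higher. The class medians were -2.81, -2.76 and -1.84 for box C/D, box H/ACA and Cajal body RNAs. Snord91a was 39.8-fold lower in anti-CD3-CD28 Treg cells, at 5.18 and 5.10, against 10.71 and 10.20 in anti-CD3-CD28 Teff cells. Snord88a (31.4-fold), Snord52 (26.7-fold), Snord85 (21.7-fold), Snora20 (24-fold), Snora2b (19.1-fold), Snora30 (17.6-fold), Scarna8 (16.8-fold) and Scarna6 (9.24-fold) were also lower. In OX40L-JAG1 Treg cells against OX40L-JAG1 Teff cells 70 of 78 were lower and none higher by limma (unadjusted, 71 lower and 0 higher), where 16.5% of all genes were lower and 24.6% higher. Array weights gave 44 and only the 4 arrays compared gave 34, all lower. Their class medians were -1.35, -2.04 and -0.98, and -2.33, -3.02 and -2.06 with the level trend removed by loess. Snora31, from Tpt1, had 9.14 and 8.77 in OX40L-JAG1 Treg cells, against 12.48 and 12.62 in OX40L-JAG1 Teff cells, without overlap (12.1-fold lower, adjusted p = 1.81e-05). Snora44 (13.8-fold), Snora20 (11-fold), Snord91a (16.2-fold), Snord85 (13.4-fold), Snord52 (11-fold), Snord88a (10.3-fold), Scarna8 (13-fold) and Scarna6 (3.29-fold) were lower as well.

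The response itself was tested for a difference between the cell types, as treated minus control in Treg cells minus the same in Teff cells. For anti-CD3-CD28 this interaction was negative and passed for 75 of 78 RNAs, and none passed in the other direction by limma (unadjusted, 76 negative and 0 positive). Over all genes 2.94% passed as negative and 10.1% as positive, and without the OX40L-JAG1 Teff arrays 75 RNAs passed against 11.0% and 20.0% of all genes. The interactions had class medians of -4.06, -3.16 and -2.59. For OX40L-JAG1 75 of 78 passed as negative and none as positive by limma (unadjusted, 76 and 0), against 10.2% and 21.3% of all genes, with class medians of -2.56, -2.50 and -1.72. Snord52 had the largest interaction for both treatments, at -7.51 ± 0.55 for anti-CD3-CD28 (adjusted p = 2.05e-05) and -6.23 ± 0.55 for OX40L-JAG1 (adjusted p = 0.000178). In the separate comparisons 52 RNAs fell in anti-CD3-CD28 Treg cells and rose in anti-CD3-CD28 Teff cells, and 30 did so for OX40L-JAG1, against 0.451% and 0.221% of all genes. The comparisons of a cell type share its control arrays.

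Some RNAs with a high signal were read singly. Snora33, from the ribosomal protein gene Rps12, had 13.33 and 13.27 in anti-CD3-CD28 Treg cells, against 13.83 and 13.84 in control Treg cells, and 13.60 and 13.74 in anti-CD3-CD28 Teff cells, against 13.70 and 13.69 in control Teff cells. It passed in none of the 11 tests (adjusted p from 0.0731 to 0.958). Its rows disagreed, since the row not used had 8.71 and 8.66 in anti-CD3-CD28 Treg cells, against 10.57 and 10.11 in control Treg cells, and 11.88 and 11.80 in anti-CD3-CD28 Teff cells, against 8.65 and 8.71 in control Teff cells. With the mean of its rows Snora33 changed by 1.57 in anti-CD3-CD28 Teff cells, where the row used changed by -0.03. Snord49b fell by 1.10 in anti-CD3-CD28 Treg cells and Snord22, from Snhg1, by 1.00. After the same antibodies in Teff cells they had 0.40 and 0.07 and did not pass. Snora21 and Snora23 fell by 1.98 and 1.75 in anti-CD3-CD28 Treg cells and had 0.57 and 0.49 in anti-CD3-CD28 Teff cells, which did not pass. Across the 78 RNAs the change hardly went with the annotated length, 48 to 248 nt (Spearman 0.0932 in anti-CD3-CD28 Treg cells, -0.0334 in OX40L-JAG1 Treg cells, -0.0812 in anti-CD3-CD28 Teff cells and -0.0962 in OX40L-JAG1 Teff cells, each against its control). It went more with the mean level over the 12 arrays (Spearman 0.291, 0.657, -0.675 and -0.694 in the same order). RNAs with a higher signal thus tended to change less, and the cause was not tested. These correlations only describe RNAs measured on the same arrays, all of 48 to 248 nt. Whether the extraction recovered small RNAs equally in all groups was not tested.

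Some of these RNAs act in the cleavage of precursor ribosomal RNA. Snord118, the U8 RNA needed for maturation of large-subunit ribosomal RNA, had 7.73 and 7.78 in anti-CD3-CD28 Treg cells, 8.53 and 9.19 in OX40L-JAG1 Treg cells and 11.27 and 10.10 in control Treg cells. In Teff cells it had 12.20 and 11.68 after anti-CD3-CD28, 9.92 and 11.18 after OX40L-JAG1 and 7.62 and 8.04 in control. It fell by 2.93 in anti-CD3-CD28 Treg cells (adjusted p = 0.00131) and rose by 4.11 in anti-CD3-CD28 Teff cells (adjusted p = 0.000147), and its fall in OX40L-JAG1 Treg cells did not pass (-1.83 ± 0.45, adjusted p = 0.0836). Snord13, the U13 RNA, which acts on small-subunit ribosomal RNA, fell by 2.06 in anti-CD3-CD28 Treg cells (adjusted p = 0.00222) and rose by 2.30 in anti-CD3-CD28 Teff cells (adjusted p = 0.000967). The copies of U17, Snora73a and Snora73b, both lie in Snhg3. Snora73a had 10.70 and 10.59 in anti-CD3-CD28 Treg cells, with 10.13 and 10.55 in OX40L-JAG1 Treg cells, against 11.63 and 11.31 in control Treg cells, and fell in both (-0.82, adjusted p = 0.0462, and -1.13, adjusted p = 0.0363). Snora73b changed by -0.82 (adjusted p = 0.0678) and -1.19 (adjusted p = 0.044). The near-identical copies can share probes, so their separate values are uncertain.

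The Cajal body RNAs were read singly too. Scarna10, from the condensin gene Ncapd2, had 11.04 and 10.85 in anti-CD3-CD28 Treg cells, with 12.45 and 12.42 in OX40L-JAG1 Treg cells, against 12.77 and 12.64 in control Treg cells. It fell after the antibodies (-1.76 ± 0.18, adjusted p = 6.97e-05), and its change after the ligands did not pass (-0.27 ± 0.18, adjusted p = 0.74). Scarna2 had 10.48 and 10.54 in anti-CD3-CD28 Treg cells, with 10.57 and 11.01 in OX40L-JAG1 Treg cells, against 11.70 and 11.73 in control Treg cells, and fell in both. In Teff cells Scarna17 changed by 0.06 after the antibodies (adjusted p = 0.88) and 0.26 after the ligands (adjusted p = 0.225), and neither passed. Its rows disagreed, since the row not used had 11.58 and 11.58 after the antibodies, and 11.79 and 11.92 after the ligands, against 10.93 and 10.59 in control Teff cells, differences of 0.82 and 1.10 that were not tested. Scarna2 had -0.06 after the antibodies (adjusted p = 0.893) and rose by 0.79 after the ligands (adjusted p = 0.00812). Scarna6 and Scarna8, by contrast, rose in both treated Teff groups by 2.29 to 2.68.

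**Figure D3:**
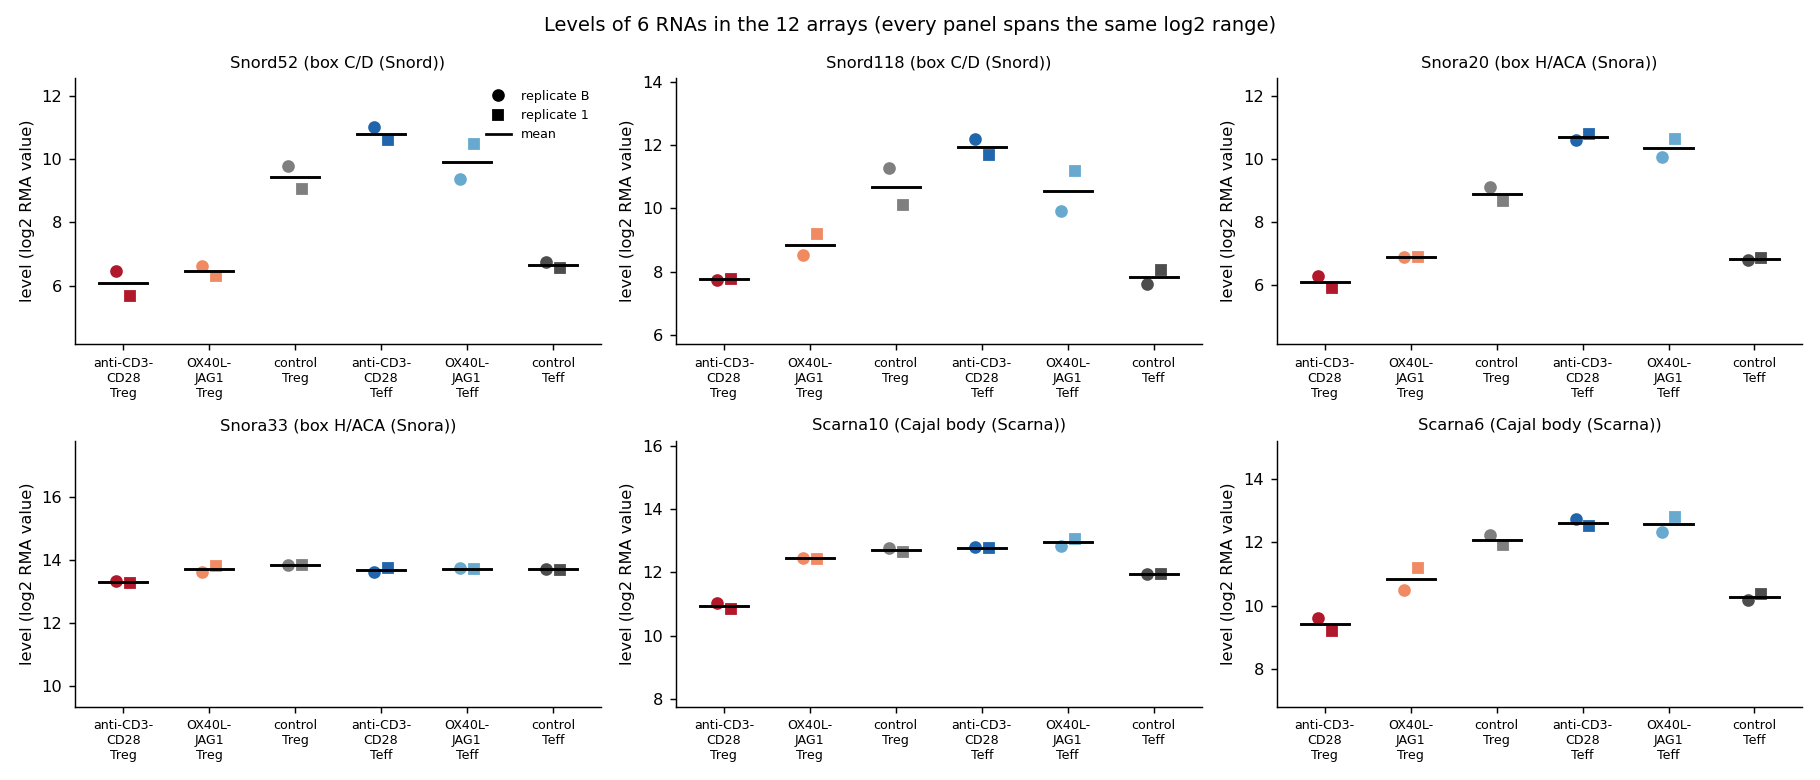
Levels of Snord52, Snord118, Snora20, Snora33, Scarna10 and Scarna6 (log2 RMA value) by group, with replicate B as a circle, replicate 1 as a square and the mean as a line; all panels span the same log2 range. Snord52 lies between 5.68 and 6.62 in both treated Treg groups and at 11.02 and 10.59 in anti-CD3-CD28 Teff cells, while Snora33 lies between 13.27 and 13.84 in all arrays.

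Hosts of these RNAs were looked up by position alone. Strand was not compared, so a gene on the other strand would also count as a host. Of the 78 RNAs, 68 lie inside exactly 1 gene of the RefSeq table, 4 in none and 6 in more than 1. Of the 68, 52 have a protein-coding host, 18 of them in 16 ribosomal protein genes, and 16 a noncoding host. The host was measured for 58 RNAs, in 44 hosts. In anti-CD3-CD28 Treg cells 51 of these 58 RNAs fell with a median of -2.09, while 5 of 44 hosts fell and 2 rose with a median of -0.18 (all genes, 1.97% lower and 8.08% higher). In anti-CD3-CD28 Teff cells 44 of 58 RNAs rose with a median of 1.51, while 3 of 44 hosts rose and 6 fell, with a median of -0.00 (all genes, 5.44% higher and 9.75% lower). In OX40L-JAG1 Treg cells 23 RNAs and 1 host fell, where 0.559% of all genes did. In OX40L-JAG1 Teff cells 52 RNAs rose, while 24 hosts fell and 3 rose (all genes, 20.0% higher and 26.9% lower). The difference between an RNA and its host was not tested.

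Single pairs show how far RNA and host parted. Ncapd2, the host of Scarna10, rose in anti-CD3-CD28 Treg cells (2.03 ± 0.23, adjusted p = 0.000162), where Scarna10 fell by 1.76. Srcap changed by 0.39 ± 0.20 there and did not pass (adjusted p = 0.292), where Snora30 fell by 3.92, and it fell by 1.50 in anti-CD3-CD28 Teff cells, where Snora30 rose by 2.27. Tcp1 passed in neither comparison (0.81 and 0.38), where Snora20 fell by 2.78 and rose by 3.85. RNAs of the same host could differ too. Of those in Snhg12, in control Treg against control Teff cells Snora16a was lower (-0.75), and Snora44 (0.32), Snora61 (0.62) and Snord99 (0.43) did not pass. In OX40L-JAG1 Treg cells Snora61 (-2.43), Snora44 (-2.21) and Snora16a (-0.95) fell, and Snord99 did not pass (-0.28, adjusted p = 0.732). In all, 25 RNAs shared 11 hosts.

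**Figure D4:**
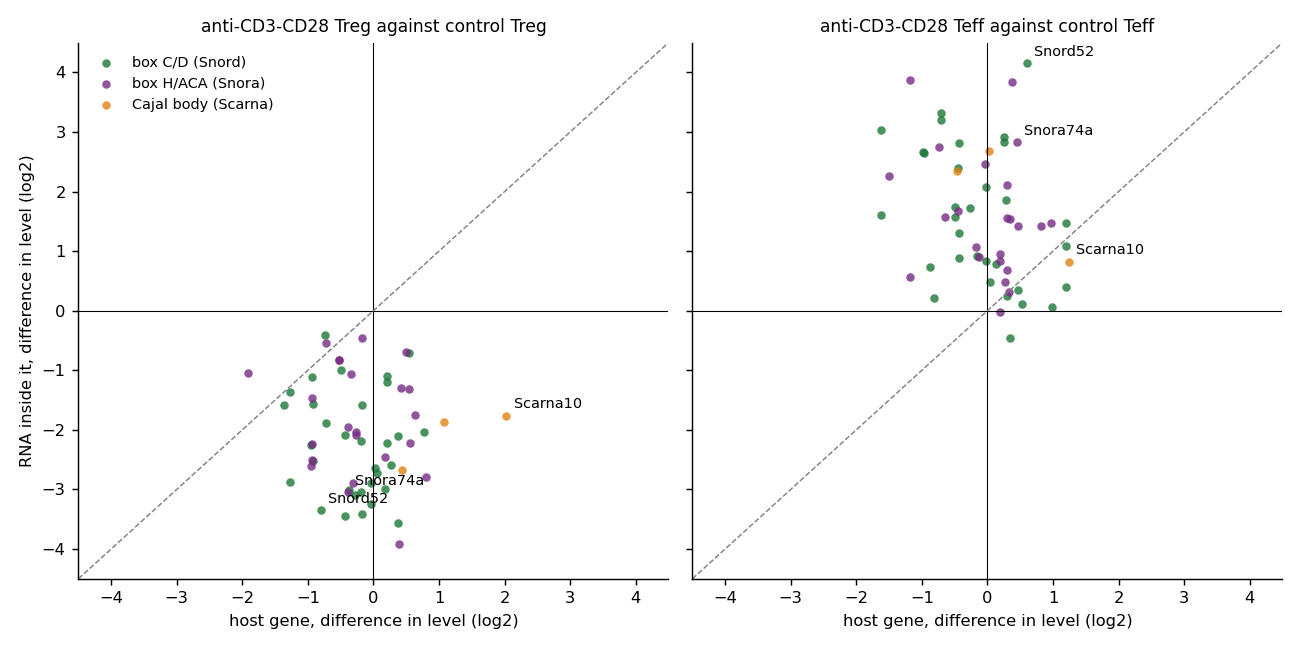
Difference in level (log2) of 58 RNAs against that of the gene they lie in, in anti-CD3-CD28 Treg against control Treg cells (left) and anti-CD3-CD28 Teff against control Teff cells (right); the dashed line marks equal change. Most points lie below 0 on the left and above 0 on the right, while hosts spread around 0.

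Many hosts of small nucleolar RNAs are known to start with a C followed by pyrimidines, a feature of genes whose translation follows growth signals. The starts of 6 noncoding hosts are shown because their small RNAs are among those described above. The sequences are from RefSeq (GRCm38.p6), with 10 bases before the annotated start and 50 bases from it on. Capitals mark CTTT where it lies within 6 bases before the start and the first 14 bases from it, searched on the transcribed strand. They are chr17:34952422-34952481 on the minus strand for 1110038B12Rik (Snord52), chr4:132308668-132308727 on the plus strand for Snhg12 (Snora16a, Snora44, Snora61 and Snord99), chr11:62602867-62602926 on the plus strand for 2410006H16Rik (Snord49a, Snord49b and Snord65), chr19:8723477-8723536 on the plus strand for Snhg1 (Snord22), chr15:32244613-32244672 on the minus strand for Snhg18 (Snord123) and chr4:132353637-132353696 on the minus strand for Snhg3 (Snora73a and Snora73b).
1110038B12Rik: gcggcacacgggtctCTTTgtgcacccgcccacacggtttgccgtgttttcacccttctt
Snhg12: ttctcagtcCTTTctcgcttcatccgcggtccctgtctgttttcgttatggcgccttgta
2410006H16Rik: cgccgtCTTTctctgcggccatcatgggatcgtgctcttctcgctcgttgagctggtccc
Snhg1: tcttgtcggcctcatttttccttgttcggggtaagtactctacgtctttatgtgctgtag
Snhg18: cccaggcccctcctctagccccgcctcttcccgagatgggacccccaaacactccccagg
Snhg3: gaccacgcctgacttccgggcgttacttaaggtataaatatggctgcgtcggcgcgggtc
Among the 42 hosts with an entry, 8 held CTTT in that window (19.0%), against 7.57% of all 27025 genes of the table. A match is a description of letters, and its absence says only that these letters are not in the window.

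Transcripts of the proteins that form particles with these RNAs were measured on the same arrays, and protein was not measured. Of the genes for box C/D core proteins, Nop56, Nop58 and Snu13 were measured. Nop56 had 9.98 and 9.49 in anti-CD3-CD28 Treg cells, with 9.40 and 9.28 in OX40L-JAG1 Treg cells, against 11.40 and 10.78 in control Treg cells, with both treated groups below control. It fell in both (-1.36 ± 0.26, adjusted p = 0.00544, and -1.75 ± 0.26, adjusted p = 0.00549), and is itself the host of Snord110. A further row, annotated to both Snord57 and Nop56, was left out. Whether the Nop56 signal includes small RNAs of that gene was not tested. Nop58 (-0.04 and -0.92) and Snu13 (-0.84 and -0.51) did not pass in these comparisons by limma (unadjusted, 2 of the 3 genes lower in each). None of the 4 genes for box H/ACA core proteins passed in either treated Treg group against control by limma (unadjusted, 1 lower in each). After anti-CD3-CD28 in Teff cells Dkc1, which encodes the pseudouridine synthase, was the only member of either core list to pass, and it fell (-1.24 ± 0.29, adjusted p = 0.0127). Of 11 assembly factors Ruvbl2 rose in anti-CD3-CD28 Treg cells (1.14 ± 0.21) and Tcof1 fell in anti-CD3-CD28 Teff cells (-0.97 ± 0.19). Of 10 genes that trim or degrade small RNAs none passed in either treated Treg group by limma (unadjusted, 4 higher and 1 lower after anti-CD3-CD28 and 0 after OX40L-JAG1). Of these, in anti-CD3-CD28 Teff cells the exosome nuclease gene Dis3 (-1.21 ± 0.23) and Tent4b (-1.05 ± 0.21) fell. In OX40L-JAG1 Teff cells 8 of 10 of these and 8 of 11 assembly factors fell, where 26.9% of all genes did. The fall was not confined to these lists, since 24 of 44 measured hosts fell there too. Those arrays also had a narrower range of levels (SD over genes 1.49 and 1.71). Of 19 noncoding host genes of such RNAs 4 fell in anti-CD3-CD28 Treg cells by limma (unadjusted, 9 lower and 0 higher), where 1.97% of all genes did. In anti-CD3-CD28 Teff cells 4 rose (unadjusted, 7 higher and 0 lower), where 5.44% of all genes did. Snhg17 (-2.83 ± 0.27 and 2.29 ± 0.27) and Zfas1 (-1.46 ± 0.21 and 2.31 ± 0.21) were in both counts. A further row, annotated to both Snord12 and Zfas1, was left out. Whether the Snhg17 and Zfas1 signals include small RNAs of those genes was not tested.

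Other small noncoding RNAs were read in the same comparisons. Of 9 measured, 7 fell in anti-CD3-CD28 Treg cells, with a median of -1.88, where 1.97% of all genes fell. In anti-CD3-CD28 Teff cells 6 rose, with a median of 1.35, where 5.44% of all genes rose. Rprl1 passed in neither (-0.84 and 0.50). Rny3, a Y RNA bound by the Ro protein (101 nt), had 7.09 and 6.93 in anti-CD3-CD28 Treg cells, against 10.01 and 9.66 in control Treg cells (-2.83 ± 0.23, adjusted p = 2.08e-05). Rny3 rose by 3.55 ± 0.23 in anti-CD3-CD28 Teff cells, at 10.83 and 10.76, against 7.29 and 7.21 in control Teff cells. Rny1 fell by 2.37 and rose by 2.58 in these comparisons, and the minor spliceosome RNAs Rnu11 (-1.88 and 1.31) and Rnu12 (-1.74 and 1.68) passed in both too. The groups of Rny3 did not overlap in either comparison.

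Rn7sk, which holds an elongation factor in an inactive complex and is longer (332 nt), had 13.70 and 13.68 in anti-CD3-CD28 Treg cells, against 13.94 and 14.05 in control Treg cells. It passed in none of the 11 tests by limma (adjusted p from 0.332 to 0.984, unadjusted p from 0.0567). Rpph1, the RNA of ribonuclease P (325 nt), fell in anti-CD3-CD28 Treg cells (-1.50 ± 0.24, adjusted p = 0.00169) and did not pass in anti-CD3-CD28 Teff cells (0.27 ± 0.24, adjusted p = 0.533). Vaultrc5 is longer still (345 nt) and passed in both by limma. It fell in anti-CD3-CD28 Treg cells (-1.89 ± 0.50, adjusted p = 0.0339) and rose in anti-CD3-CD28 Teff cells (2.21 ± 0.50, adjusted p = 0.0112). Terc, the telomerase RNA, which carries a box H/ACA domain, averaged 7.04 in anti-CD3-CD28 Treg cells, against 9.87 in control Treg cells, with no overlap, and fell (-2.83 ± 0.53, adjusted p = 0.005). It did not pass in anti-CD3-CD28 Teff cells (0.94 ± 0.53, adjusted p = 0.289).

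**Figure D5:**
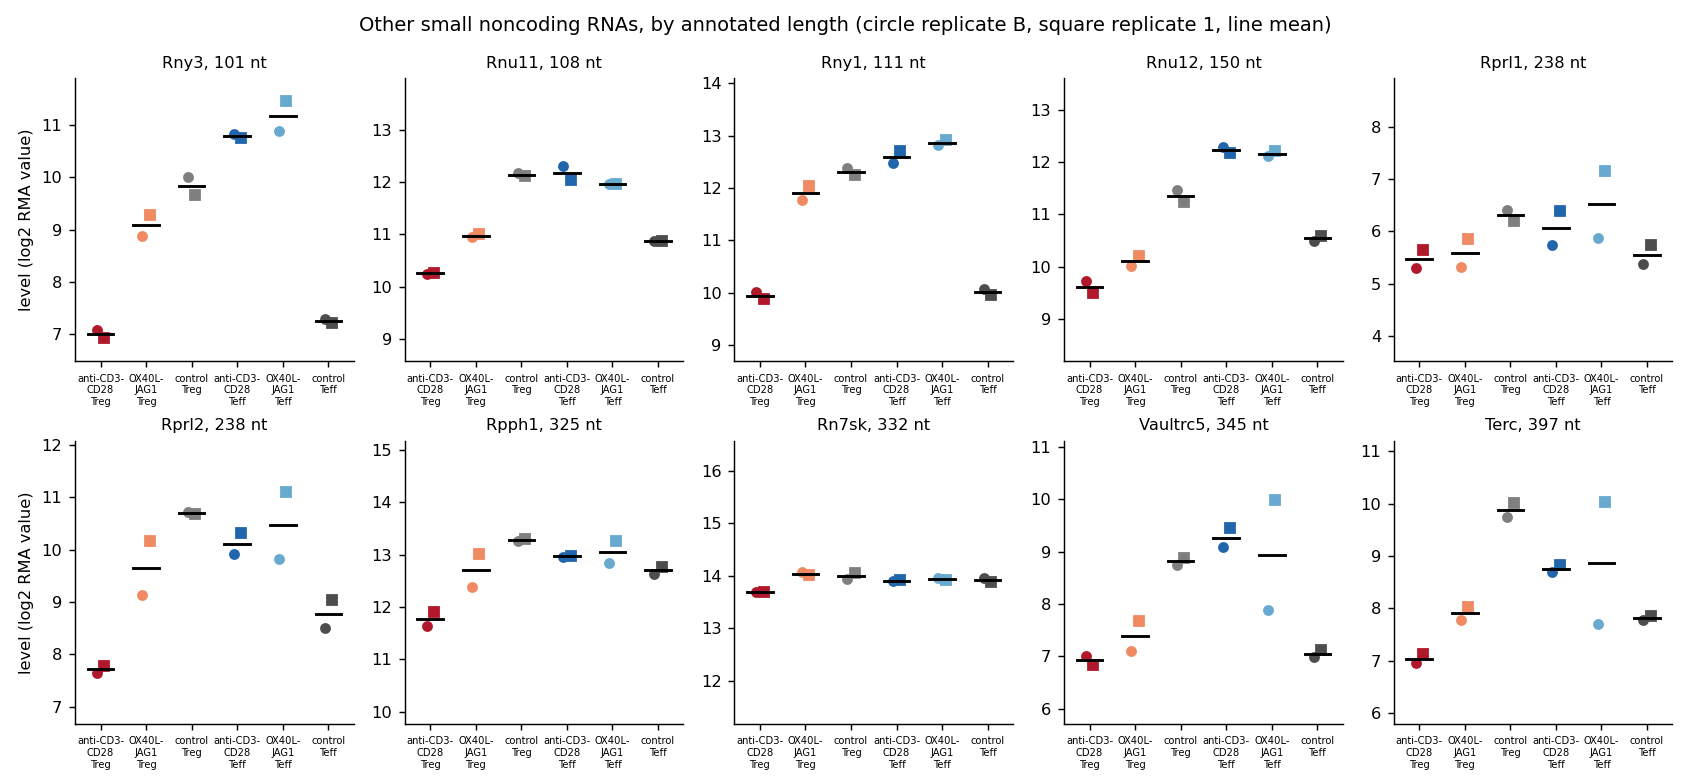
Levels (log2 RMA value) of 9 other small noncoding RNAs and Terc by group, ordered by annotated length, with replicate B as a circle, replicate 1 as a square and the mean as a line; all panels span the same log2 range. Rny3 and Rny1 are low in anti-CD3-CD28 Treg and control Teff cells, and Rn7sk lies between 13.68 and 14.06 in all groups.

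Rows whose annotation holds several symbols were left out of the 78 RNAs. They numbered 46, of which 31 had different values, and 30 symbols occur only on them. Of these 31 rows, 30 had a lower mean in anti-CD3-CD28 Treg cells than in control Treg cells, with a median difference of -1.98. The same number, 30, had a higher mean in anti-CD3-CD28 Teff cells than in control Teff cells, with a median difference of 1.50. These rows were not tested, since some also hold a host gene or a microRNA. U3, the box C/D RNA that starts the cleavage of precursor ribosomal RNA, is on the array under the symbol Rnu3a and so lies outside the rule, and it was looked at after the values were seen. It had 10.81 and 10.90 in anti-CD3-CD28 Treg cells, against 11.94 and 12.08 in control Treg cells (-1.15 ± 0.19, adjusted p = 0.00201). Its changes in OX40L-JAG1 Treg cells (-0.80, adjusted p = 0.0665), anti-CD3-CD28 Teff cells (0.47, adjusted p = 0.123) and OX40L-JAG1 Teff cells (0.14, adjusted p = 0.529) did not pass. It was lower in control Treg than in control Teff cells (-1.09 ± 0.19, adjusted p = 0.00725).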

How the data were processed

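Total RNA of 12 samples, extracted by a column kit per the labels' protocols, was hybridised to Affymetrix Mouse Gene 2.0 ST arrays, 1 per sample. The deposited values are log2 intensities that the authors summarised with RMA, per the submitters' processing notes (version not given in the sources used here), and were used as deposited. Of 41345 rows, 23521 had 1 gene symbol in the platform annotation, giving 22180 genes. Rows with several symbols (1814) or none (16010) were left out of the tests. No count or detection call is given, and the number of arrays limits the precision.

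With limma 3.58.1 in R 4.3.3, group means were fitted to the 12 arrays together (6 residual degrees of freedom), giving 9 comparisons and 2 interactions. Tests were two-sided, and p-values were adjusted by Benjamini and Hochberg over all 22180 genes within a comparison, with a threshold of 0.05. Changes are log2 differences with their SE. The RNAs, gene lists and tests were chosen with earlier results of these data known. Named per direction were up to 4 box C/D, 3 box H/ACA and 2 Cajal body RNAs. They had the largest change among those that passed and did not overlap. Also named were 3 per interaction, the 3 brightest of each class, all Scarna genes, U8, U13, U17 and Terc. A few more were named after their values were seen (Snord49a, Snord65, Snord99, Snord110, Snora19, Rnu3a, Vaultrc5). One of the brightest box C/D RNAs is not reported here. Hosts, lengths and start sequences are from RefSeq (GRCm38.p6), matched by symbol.

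Alternatives were the replicate number as a block, dim genes left out, trend and robust shrinkage, quantile normalization, scaling to the same array median, weights per array, averaging a gene's rows, only the arrays compared, a level trend removed by loess, the OX40L-JAG1 Teff arrays left out, and each array left out.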

Additional observations from a re-analysis of the deposited data

Results flagged for a closer look

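The response to treatment differed between Treg and Teff cells by the interaction test for 75 of 78 RNAs after anti-CD3-CD28 and for 75 of 78 after OX40L-JAG1. For anti-CD3-CD28 the largest differences were those of Snord52 (-7.51), Snord118 (-7.04) and Snora20 (-6.63). For OX40L-JAG1 they were those of Snord52 (-6.23), Snord92 (-5.79) and Snora20 (-5.50). Each is the log2 response of Treg cells minus that of Teff cells. The control arrays of each cell type enter both of its responses.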

How the results depend on the processing

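Of 238 counts of RNAs under an alternative in 11 tests, 204 stayed within 1.5 times the main count with the same majority direction. In OX40L-JAG1 Treg against control Treg cells the count of 31 became 54 with array weights, 55 without the OX40L-JAG1 Teff arrays and 48 with only the arrays compared, and 10 to 55 with 1 array left out. In OX40L-JAG1 Teff against control Teff cells the count of 70 became 46 with array weights and 45 with only the arrays compared. In OX40L-JAG1 Treg against OX40L-JAG1 Teff cells the 70 became 44 and 34 under the same settings. In control Treg against control Teff cells the 35 became 16 to 50 with 1 array left out. In anti-CD3-CD28 Teff against OX40L-JAG1 Teff cells the 5 (3 higher) became 5 after quantile normalization (1 higher), 33 with the level trend removed (0 higher), 0 with array weights and 0 with only the arrays compared (limma, unadjusted 5 and 4), and 2 to 21 with 1 array left out. The box C/D median there was -0.11, and 0.016 with a common median and -0.21 to 0.0036 with 1 array left out. Of the 33 class medians, 25 moved by more than the replicate SD with the level trend removed, 17 after quantile normalization and 14 with a common median, where 1 more reversed. With the level trend removed, the box H/ACA median in anti-CD3-CD28 Teff against OX40L-JAG1 Teff cells also changed sign, to -0.60 where it was 0.09. Quantile normalization moved the Cajal body median in anti-CD3-CD28 Teff against control Teff cells to 0.54 (0.83 before) and the box H/ACA median in control Treg against control Teff cells to 0.42 (0.65 before). Snora33 reversed in anti-CD3-CD28 Teff cells to 1.57 with the mean of its rows, which disagree. The cause of the other changes was not tested. Replicate differences correlated weakly between groups (15 correlations, -0.0693 to 0.182), and the highest value was that of OX40L-JAG1 Teff with OX40L-JAG1 Treg. Weak correlations cannot settle whether Treg and Teff arrays of a replicate came from the same culture. With the replicate block the count was 69 in anti-CD3-CD28 Treg against control Treg cells, and no count in the 11 tests moved by over 1.5 times. A level near the array median, 2 arrays a group and no detection call limit what can be read for the dimmest RNAs.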
